A study of Mus musculus with 8 samples.

Results

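The genes described here are 8 that mark brown fat or encode uncoupling proteins: Ucp1, Ucp2, Ucp3, Cidea, Ppargc1a, Cox7a1, Cox8b and Elovl3. Their probe sets were taken from a microarray of newborn mouse skin wherever the platform annotation gave the probe set a single gene symbol from this list. This gave 12 probe sets of 7 genes among 22690 probe sets on the array; Ucp2 was not analysed here. Ppargc1a had 5 probe sets, Ucp3 had 2, and the other 5 genes had 1 each.

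RNA was extracted from whole skin of newborn FVB mice, an inbred albino strain, and hybridized to 8 arrays in 4 groups of 2. In double_null skin both pRb and p53 were inactivated (pRb-/-;p53-/-). The p53_null group (pRb+/+;p53-/-) lacked p53 only, and the pRb_null group (pRb-/-;p53+/+) lacked pRb only. The fourth group is labelled control, and the sources used here do not state its alleles. Each array held RNA pooled from 3 animals of 1 genotype, and whether the 2 arrays of a genotype came from separate pools is not stated, so p-values measure the spread between arrays, which may be technical. The series title places the gene inactivation in stratified epithelia. The sources used here do not name the transgene that drives it, and fat and muscle lie outside that epithelium.

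Brown adipocytes burn fatty acids to make heat. UCP1, in their inner mitochondrial membrane, lets protons return to the matrix without making ATP, and UCP3 is a related carrier found in brown fat and skeletal muscle. PGC-1α, encoded by Ppargc1a, is a coactivator that drives mitochondrial genes and Ucp1, and pRb is known as a brake on brown fat differentiation in mouse cells. Newborn mice carry interscapular brown fat directly under the skin of the back, and several of the other genes are also active elsewhere in skin.

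Each deposited value is a standardized score: every probe set has mean 0 and SD 1 over the 8 arrays. A difference is therefore in units of that probe set's own SD, and neither levels nor fold changes can be given. The label skin could not be checked against marker levels for the same reason. Differences were tested with limma's linear model without variance moderation (4 residual degrees of freedom), with p-values adjusted by Benjamini-Hochberg over all 22690 probe sets; a probe set passed at an adjusted p under 0.05. Counts are also given at a looser bound, an unadjusted p under 0.05. The number of arrays limits the precision: an exact permutation test of 2 arrays against 2 cannot give a two-sided p below 0.333. Rb1, which encodes pRb, had 1 probe set, with scores of −0.55 and −1.90 in double_null, 0.50 and 0.22 in p53_null, −0.71 and 0.44 in pRb_null, and 1.20 and 0.80 in control. The pRb_null arrays were below control and overlapped with p53_null (difference from control −1.14 ± 0.65, adjusted p = 0.63), and whether the probe set lies in the deleted part is unknown, so it does not settle the labels. The gene for p53 was not analysed here. The 64 control probe sets that the manufacturer places on the array averaged 0.16 and 0.037 in double_null, −0.038 and 0.61 in p53_null, 0.23 and 0.064 in pRb_null, and −0.69 and −0.37 in control. The control arrays thus stood below the other 6, and the part of this shift in the comparisons with control was not tested.

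The uncoupling proteins Ucp1 and Ucp3 and the cytochrome c oxidase subunits Cox7a1 and Cox8b had their highest scores in skin that lacked both pRb and p53. The fatty acid elongase Elovl3 had its lowest scores there. Against the other 6 arrays, 5 of the 12 probe sets were higher in both double_null arrays without overlap (1 for Ucp1, 2 for Ucp3, 1 for Cox7a1 and 1 for Cox8b), as were 7.84% of all probe sets. Elovl3 was lower without overlap, as were 10.1% of all probe sets. Cidea and the 5 probe sets of Ppargc1a overlapped with other genotypes. The members thus did not move as 1 block, and the plot of scores by array shows the separate patterns.

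**Figure D1:**
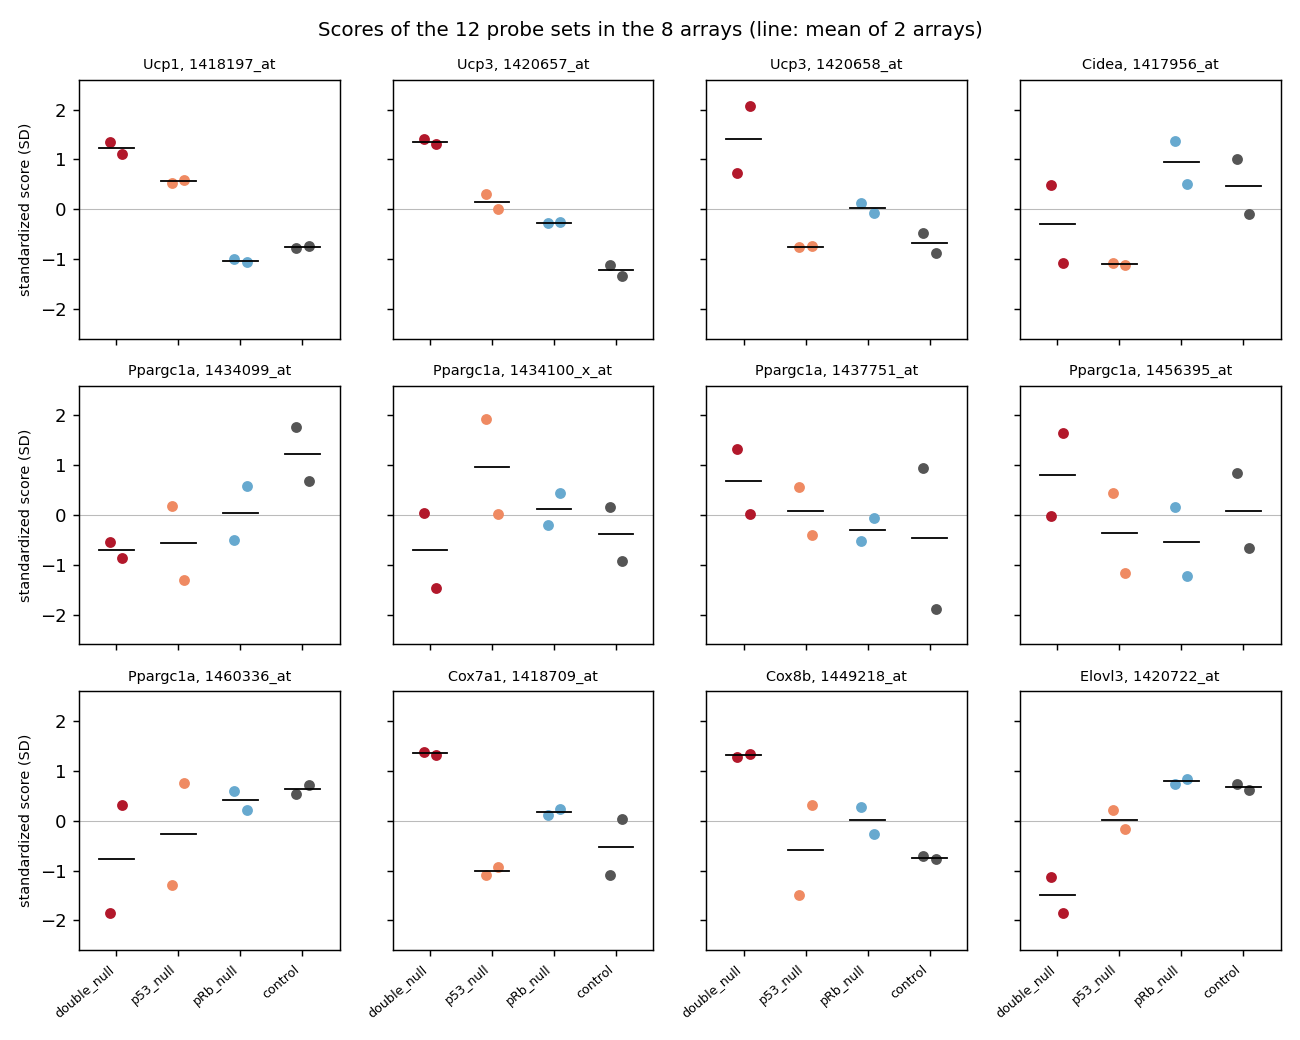
Standardized scores (vertical axis, in SD of each probe set over the 8 arrays) of the 12 probe sets in double_null, p53_null, pRb_null and control arrays; points are arrays and lines are means of 2 arrays. Ucp1, Ucp3, Cox7a1 and Cox8b sit highest in double_null, Elovl3 sits lowest there, and the 5 Ppargc1a panels differ from each other.

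Ucp1 is the defining gene of brown fat. Its scores were 1.35 and 1.12 in double_null, 0.53 and 0.59 in p53_null, −1.01 and −1.06 in pRb_null, and −0.78 and −0.74 in control. The 4 arrays without p53 therefore lay above the 4 arrays with p53, with a gap between 0.53 and −0.74 and no overlap. Ucp1 and the Ucp3 probe set 1420657_at showed this split upward, as did 5.89% of all probe sets, and Elovl3 showed it downward, as did 8.14%.

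Against control, Ucp1 rose in double_null by 1.99 ± 0.089 (SE, n = 2 arrays each, adjusted p = 0.024). Against pRb_null it rose by 2.27 ± 0.089 (adjusted p = 0.028), a comparison in which no control array sets the difference. The difference between p53_null and control was 1.32 ± 0.089 (adjusted p = 0.068), that between double_null and p53_null was 0.67 ± 0.089 (adjusted p = 0.17), and that between p53_null and pRb_null was 1.59 ± 0.089 (adjusted p = 0.060). In pRb_null, Ucp1 differed from control by −0.27 ± 0.089 (adjusted p = 0.43). The order of the genotypes for Ucp1 was thus double_null, p53_null, control and pRb_null, and neighbours in that order did not pass the test. These comparisons share arrays, so their differences are not independent of each other.

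The calls on Ucp1 rest on a residual SD between arrays of 0.089, lower than in all but 0.101% of the probe sets, where the median was 0.82. With limma's moderated test, which draws each variance towards those of the other probe sets, the adjusted p was 0.19 against control and 0.21 against pRb_null. The 2 calls were also lost with quantile normalization (adjusted p = 0.084 and 0.11), in fits of only the groups compared (0.34 for each), and with any 1 of the 8 arrays left out (0.059 to 0.14 and 0.065 to 0.18). With 1 array left out, the difference itself stayed between 1.88 and 2.11 against control and between 2.15 and 2.38 against pRb_null.

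Ucp3 was measured by 2 probe sets designed from the same transcript sequence. By 1420657_at, its scores were 1.42 and 1.30 in double_null, 0.30 and 0.0021 in p53_null, −0.29 and −0.26 in pRb_null, and −1.12 and −1.35 in control. Both single mutants lay between the double mutant and control. This probe set rose in double_null by 2.59 ± 0.14 against control (adjusted p = 0.028). Against pRb_null the difference was 1.63 ± 0.14 (adjusted p = 0.057), and against p53_null it was 1.21 ± 0.14 (adjusted p = 0.14). For the single mutants it was 1.38 ± 0.14 in p53_null (adjusted p = 0.088) and 0.96 ± 0.14 in pRb_null (adjusted p = 0.21) against control.

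By 1420658_at, the scores of Ucp3 were 0.73 and 2.08 in double_null, −0.77 and −0.74 in p53_null, 0.13 and −0.084 in pRb_null, and −0.47 and −0.87 in control. Here the double mutant was again highest, but p53_null arrays overlapped with control, with a difference of −0.080 ± 0.50 (95% confidence interval −1.48 to 1.32, adjusted p = 0.96). The difference between double_null and control was 2.08 ± 0.50 (adjusted p = 0.16). The 2 probe sets of Ucp3 thus shared the high score in double_null and not the intermediate score in p53_null. The call on 1420657_at was lost in the moderated test (adjusted p = 0.19), with quantile normalization (0.072), in the fit of only the groups compared (0.34) and with any 1 array left out (0.099 to 0.14).

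Over all 22690 probe sets, 0.846% passed between double_null and control, among them 2 of the 12 probe sets described here, Ucp1 and Ucp3. At the looser bound, 5 of the 12 were higher, against 8.77% of all probe sets, and 1 was lower, against 9.91%. The 5 were again Ucp1, both probe sets of Ucp3, Cox7a1 and Cox8b, and the 1 was Elovl3; without control replicate 2, 3 were higher at that bound. The median difference of the 12 probe sets was 0.94, against −0.0057 over all probe sets.

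Between double_null and pRb_null, 0.405% of all probe sets passed, and Ucp1 was the 1 member that did. At the looser bound 3 of the 12 were higher (7.71% of all) and 1 was lower (10.9%), and the median difference was 1.08 against −0.15 over all. Between double_null and p53_null, 0.0353% of all passed and 0 of the 12 in limma's test without moderation. There 5 of the 12 were higher (5.99% of all) and 1 was lower (5.91%) at the looser bound, and the median was 0.75 against 0.035 over all.

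The single mutants gave fewer members at the looser bound. In p53_null 2 of the 12, Ucp1 and 1 probe set of Ucp3, were higher than control (7.38% of all) and 0 were lower (7.23%). In pRb_null 1 was higher (Ucp3, 6.44% of all) and 1 was lower (Ucp1, 4.21%). Between p53_null and pRb_null 2 were higher (6.81%) and 1 was lower (9.41%). No member passed in these 3 comparisons, where 0.119%, 0% and 0.0573% of all probe sets did.

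In the moderated test 0 of the 12, and 0 of all probe sets, passed in any comparison, so every call given here and for other genes is from the test without moderation. At its looser bound in either direction it had 7 of the 12 between double_null and control (21.7% of all), 3 between double_null and pRb_null (21.7%) and 3 between double_null and p53_null (13%). It had 1 between p53_null and control (Ppargc1a by 1434099_at, 15.1% of all) and 1 between p53_null and pRb_null (Cidea, 18.4%). Between pRb_null and control it had 0 (10.9%). Ucp1 was among the members between double_null and control (unadjusted p in the moderated test = 0.017) and between double_null and pRb_null (0.0073). It was not among them in the other comparisons. Its unadjusted p in the moderated test was 0.11 between p53_null and control and 0.054 between p53_null and pRb_null. Between double_null and p53_null it was 0.41. The share of members between double_null and control, 58.3%, was thus above the background, and that between double_null and pRb_null, 25%, was near it.

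**Figure D2:**
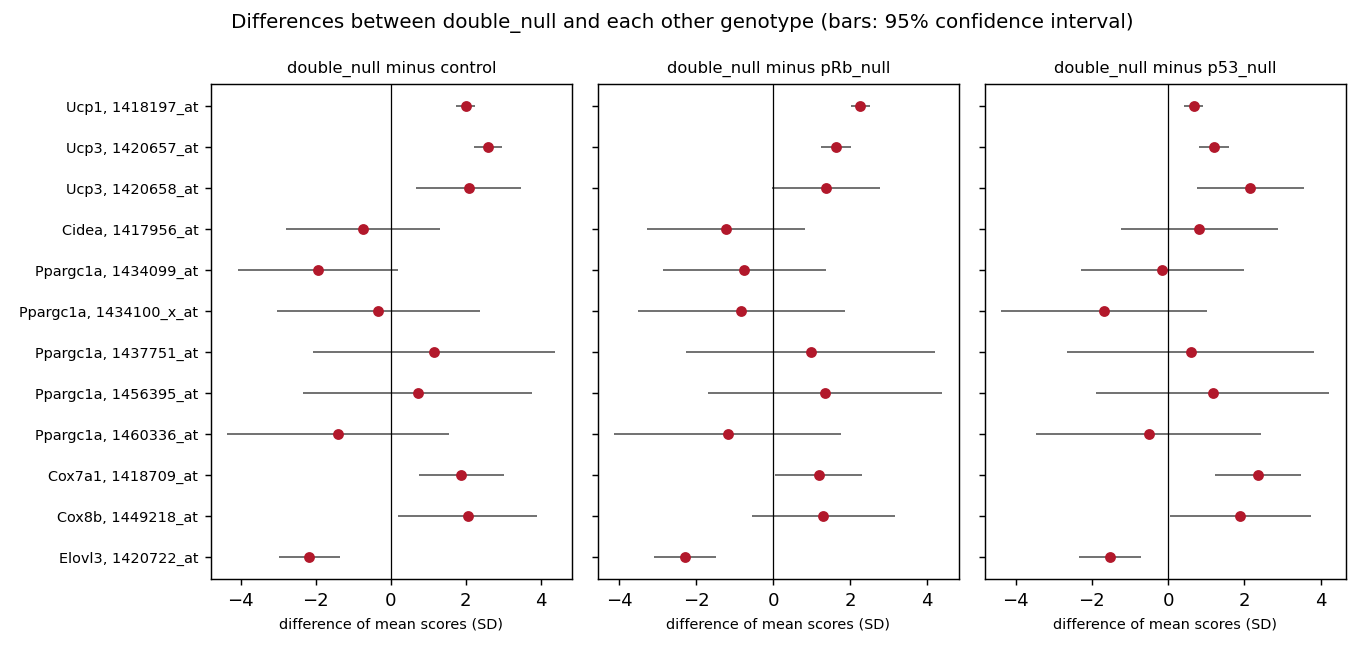
Difference of mean scores (horizontal axis, in SD) between double_null and control, pRb_null or p53_null for the 12 probe sets; points are differences and bars are 95% confidence intervals from limma's model on all 8 arrays. The intervals of Ucp1, of Ucp3 by 1420657_at, of Cox7a1 and of Elovl3 leave out 0 in each of the 3 comparisons, while those of Cidea and of the 5 Ppargc1a probe sets include it; Ucp3 by 1420658_at and Cox8b include 0 against pRb_null.

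Cox7a1 and Cox8b encode the forms of their cytochrome c oxidase subunits that heart, skeletal muscle and brown fat use. Cox7a1 scored 1.39 and 1.33 in double_null, −1.09 and −0.93 in p53_null, 0.12 and 0.24 in pRb_null, and −1.09 and 0.041 in control. Its difference in double_null was 2.37 ± 0.41 against p53_null (adjusted p = 0.21), 1.18 ± 0.41 against pRb_null (adjusted p = 0.26) and 1.88 ± 0.41 against control (adjusted p = 0.14). The double mutant was highest, and p53_null was lowest together with control replicate 1. Cox7a1 in p53_null therefore did not share the high score of Ucp1 in the same arrays.

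Cox8b scored 1.28 and 1.35 in double_null, −1.48 and 0.32 in p53_null, 0.28 and −0.27 in pRb_null, and −0.72 and −0.76 in control. The double_null arrays lay above the other 6, and the p53_null arrays differed from each other by 1.80. The difference between double_null and control was 2.05 ± 0.67 (adjusted p = 0.23), that to pRb_null 1.31 ± 0.67 (adjusted p = 0.38) and that to p53_null 1.90 ± 0.67 (adjusted p = 0.42). The differences of Cox7a1 and Cox8b did not pass in any comparison.

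The isoforms of the same subunits used in most tissues did not show the same scores. Cox7a2, the general form of the Cox7a subunit, scored −0.80 and 0.14 in double_null, and 0.77 and 0.76 in control (−1.10 ± 0.48, adjusted p = 0.33). Cox8a, the general form of Cox8b, scored −0.23 and −0.97 in double_null, and −0.19 and 0.81 in control (−0.91 ± 1.05, adjusted p = 0.69). For the third subunit with a muscle form the pattern was another: the general form Cox6a1 scored 1.39 and 1.64 in double_null, and −0.12 and −0.32 in control (1.73 ± 0.26, adjusted p = 0.093). The muscle form Cox6a2 scored −0.077 and 0.87 in double_null, and −0.89 and −0.51 in control (1.10 ± 0.83, adjusted p = 0.54). Of the 13 measured cytochrome c oxidase subunits other than Cox7a1 and Cox8b, in double_null 2 were above control at the looser bound and 0 below it, against 8.13% and 9.56% of all genes, and their median difference was 0.089. Among the genes of that list, Cox6a1 and Cox6b1 (2.24 ± 0.61, adjusted p = 0.19) had the smallest p.

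**Figure D3:**
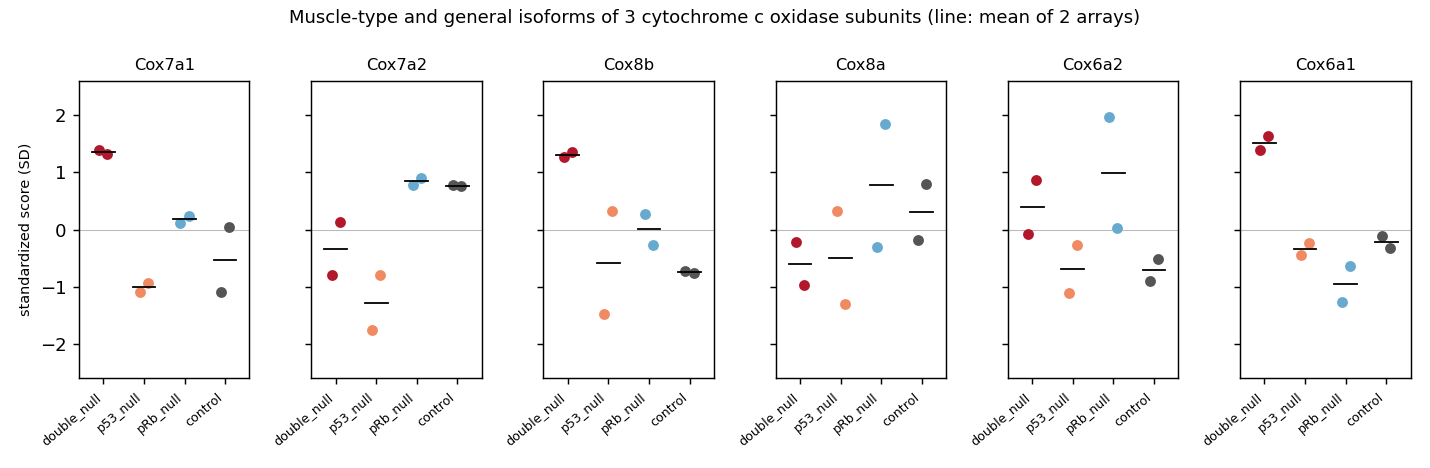
Standardized scores (vertical axis, in SD) of Cox7a1, Cox8b and Cox6a2, the forms found in striated muscle, each beside the general form of the same subunit (Cox7a2, Cox8a and Cox6a1), in double_null, p53_null, pRb_null and control arrays; points are arrays and lines are means of 2 arrays. Cox7a1, Cox8b and Cox6a1 sit highest in double_null, and Cox7a2 and Cox8a do not.

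Since Ucp1, Ucp3, Cox7a1 and Cox8b shared their highest score in double_null, their promoters are shown here as the 250 bases before the annotated start of each gene, read 5′ to 3′ on the gene's own strand from RefSeq on GRCm38.p6. Promoter sequences matched for 6 of the 8 genes. The regions are chr8:83290098-83290347 on the plus strand for Ucp1, chr7:100472741-100472990 on the plus strand for Ucp3, chr7:30183921-30184170 on the plus strand for Cox7a1 and chr7:140900447-140900696 on the minus strand for Cox8b. Capitals mark AGGTCA, the core hexamer that PPAR, ERR and other nuclear receptors bind.
Ucp1: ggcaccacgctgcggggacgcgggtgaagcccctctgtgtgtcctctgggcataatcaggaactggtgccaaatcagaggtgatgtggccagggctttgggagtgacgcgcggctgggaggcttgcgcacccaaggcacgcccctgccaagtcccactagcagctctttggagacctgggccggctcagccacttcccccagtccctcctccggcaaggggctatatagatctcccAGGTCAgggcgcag
Ucp3: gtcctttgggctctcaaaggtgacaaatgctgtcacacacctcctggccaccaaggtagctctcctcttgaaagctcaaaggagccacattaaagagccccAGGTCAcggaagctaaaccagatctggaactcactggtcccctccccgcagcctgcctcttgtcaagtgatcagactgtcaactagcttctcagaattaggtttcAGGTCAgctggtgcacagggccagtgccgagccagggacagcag
Cox7a1: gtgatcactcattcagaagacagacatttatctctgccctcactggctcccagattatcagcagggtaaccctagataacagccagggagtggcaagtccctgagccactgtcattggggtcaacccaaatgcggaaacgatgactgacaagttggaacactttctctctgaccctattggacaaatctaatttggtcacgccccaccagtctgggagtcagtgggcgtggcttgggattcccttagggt
Cox8b: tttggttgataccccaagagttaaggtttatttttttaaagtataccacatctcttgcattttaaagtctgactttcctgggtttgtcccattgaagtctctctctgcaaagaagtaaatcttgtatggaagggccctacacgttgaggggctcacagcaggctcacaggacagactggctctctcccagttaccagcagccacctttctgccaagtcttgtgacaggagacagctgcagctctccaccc

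The AGGTCA core was searched on both strands. It was found at bases −14 to −9 before the Ucp1 start and at −149 to −144 and −44 to −39 before the Ucp3 start, on the gene's strand each time, and not in the windows of Cox7a1 and Cox8b. Of 32841 promoters of this length, 14% held it. The DR1 element, a direct repeat of that core with 1 base between the copies, was not in these windows with any spacer base (0.0335% of all promoters) or with A as the spacer (0.0152%). Neither the ERR element TCAAGGTCA (0.387%) nor the cAMP response element TGACGTCA (1.55%) was there; DR1 and the ERR element contain the AGGTCA core. The E2F motifs TTTGGCGC (0.417%), TTTCGCGC (0.256%), TTTCCCGC (0.895%) and TTTGCCGC (0.338%) were not there either. These matches are descriptions of the letters in the window only.

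Elovl3 encodes an elongase of very long chain fatty acids that brown fat induces in the cold, and that sebaceous glands and hair follicles of mouse skin also use. Its scores were −1.14 and −1.85 in double_null, 0.21 and −0.17 in p53_null, 0.74 and 0.85 in pRb_null, and 0.73 and 0.63 in control. The double mutant was lowest, p53_null was intermediate, and pRb_null and control were both high, with a difference of 0.11 ± 0.29 between them (95% confidence interval −0.70 to 0.93, adjusted p = 0.93). The difference in double_null was −2.18 ± 0.29 against control (adjusted p = 0.079), −2.29 ± 0.29 against pRb_null (adjusted p = 0.088) and −1.52 ± 0.29 against p53_null (adjusted p = 0.24). Elovl3 thus ran opposite to Ucp1, with no call in any comparison.

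Hair follicle markers, like Elovl3, had their lowest mean scores in double_null and the next lowest in p53_null. They differed from Elovl3 in pRb_null, where 8 of 20 were lower than control and 0 higher at the looser bound (4.06% and 5.29% of all genes), with a median of −0.37. Over 20 measured genes, mostly keratins and keratin-associated proteins of the hair shaft and root sheath, the mean score was −1.44 and −1.11 in double_null, −0.30 and −0.22 in p53_null, 0.55 and 0.57 in pRb_null, and 0.92 and 1.02 in control. Against control, 13 of them fell in double_null, where 0.928% of all genes passed in either direction, and 19 were lower at the looser bound (median difference −2.32), where 9.56% of all genes were lower at that bound; the shaft genes Krtap15 (−2.18 ± 0.077, adjusted p = 0.016) and Krt35 (−2.32 ± 0.095, adjusted p = 0.020) had the smallest p. Sebaceous gland markers showed less, with mean scores of 0.19 and −0.13 in double_null, −0.44 and −0.46 in p53_null, 0.26 and 0.39 in pRb_null, and 0.25 and −0.059 in control over 11 genes. Against control, 2 of them were lower and 0 higher in double_null at the looser bound (9.56% and 8.13% of all genes), and the smallest p were those of the elongase Elovl6 (−1.86 ± 0.21, adjusted p = 0.064) and the keratin Krt79 (−1.89 ± 0.35, adjusted p = 0.12). Elovl6 scored −1.08 and −1.43 in double_null, −0.33 and −0.60 in p53_null, 1.20 and 1.04 in pRb_null, and 0.79 and 0.41 in control. By mean score this is the order of genotypes seen for Elovl3, and the mean of the sebaceous list did not share it. The part of these cell types in the Elovl3 scores was not tested. In whole skin, fewer cells of a type and less RNA per cell cannot be told apart.

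Cidea encodes a lipid droplet protein of brown fat that sebaceous glands also make. It scored 0.49 and −1.07 in double_null, −1.09 and −1.13 in p53_null, 1.36 and 0.51 in pRb_null, and 1.01 and −0.090 in control. The p53_null arrays were lowest and close to each other, and the double_null arrays spanned 1.57. The difference in p53_null was −2.05 ± 0.74 against pRb_null (adjusted p = 0.31) and −1.57 ± 0.74 against control (adjusted p = 0.43). In double_null it was −0.75 ± 0.74 against control (95% confidence interval −2.81 to 1.31, adjusted p = 0.64). Cidea and Ucp1, both used as markers of brown fat, were thus at opposite sides of control in the p53_null arrays, with no call on either.

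The 5 probe sets of Ppargc1a gave no common pattern. By 1434099_at, the scores were −0.54 and −0.87 in double_null, 0.19 and −1.30 in p53_null, −0.51 and 0.59 in pRb_null, and 1.77 and 0.68 in control. Both control arrays were above the other 6, and the difference in double_null was −1.93 ± 0.77 (adjusted p = 0.30). The other 4 differed between double_null and control by −0.33 ± 0.97 (1434100_x_at), 1.15 ± 1.17 (1437751_at), 0.72 ± 1.10 (1456395_at) and −1.41 ± 1.06 (1460336_at), with adjusted p from 0.54 to 0.89. Arrays of 1 genotype differed by up to 2.83 in these probe sets, as for 1437751_at, which scored 0.95 and −1.89 in control. The 2 probe sets designed from the same sequence, 1434099_at and 1434100_x_at, had scores of opposite sign in double_null replicate 1, p53_null replicate 2 and control replicate 2, and their mean in p53_null was −0.56 by the first and 0.97 by the second. No level or direction for Ppargc1a is given here.

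Whether the difference that goes with loss of pRb depended on p53 was tested as an interaction, (double_null minus p53_null) minus (pRb_null minus control). Of the 12 probe sets, 2 were higher (4.46% of all) and 1 was lower (6.01% of all) at the looser bound. Ucp1 had an interaction of 0.95 ± 0.13 (adjusted p = 0.24), Cox7a1 of 1.66 ± 0.58 (adjusted p = 0.46) and Elovl3 of −1.63 ± 0.41 (adjusted p = 0.37). For Ucp1, loss of pRb went with a difference of 0.67 where p53 was absent and of −0.27 where p53 was present. Over all probe sets 0 passed in limma's test without moderation, with 2377 at an unadjusted p under 0.05, and 0 passed in the moderated test, with 2251 (9.92%, 0 of them members) at that bound.

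White fat markers did not follow Ucp1. The mean score of 16 measured genes was 0.95 and 0.54 in double_null, −1.18 and −1.19 in p53_null, 0.58 and 0.67 in pRb_null, and −0.23 and −0.15 in control. In p53_null, where Ucp1 had a difference of 1.32 from control, 10 of the 16 were lower and 0 higher at the looser bound (7.26% of all genes were lower), and the median was −1.13, against −0.20 over all genes. Cidec, a lipid droplet protein of white fat (−1.02 ± 0.13, adjusted p = 0.11), and the adipocyte hormone gene Adipoq (−1.38 ± 0.18, adjusted p = 0.11) had the smallest p. In double_null 10 of the 16 were higher than in control and 0 lower (8.13% of all genes were higher), with a median of 1.00, and in pRb_null 8 were higher and 0 lower (5.29%), with a median of 0.94. None of the 16 passed in these 3 comparisons, with 0 in the moderated test. Thus the group with the lowest Ucp1 scores, pRb_null, had white fat scores above control, and the group with the lowest white fat scores, p53_null, had the second highest Ucp1 scores. Cox7a1, Cidea and Ucp3 by 1420658_at, like white fat markers, had their lowest mean scores in p53_null (−1.01, −1.11 and −0.75). The other member probe sets did not.

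**Figure D4:**
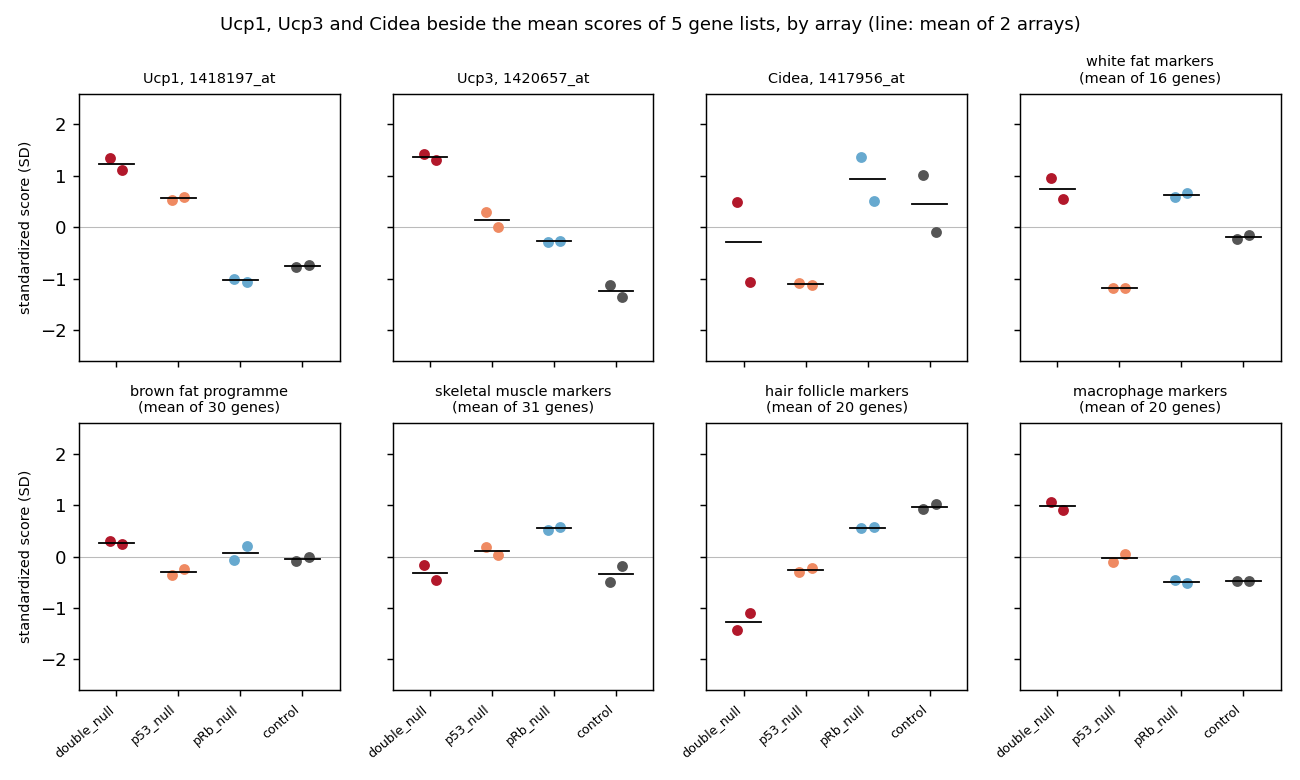
Standardized scores (vertical axis, in SD) of Ucp1, Ucp3 and Cidea and the mean scores of 5 gene lists in double_null, p53_null, pRb_null and control arrays. Points are arrays and lines are means of 2 arrays. Ucp3 is drawn by 1420657_at, its probe set with the lower residual SD. By the other, 1420658_at, the p53_null arrays overlapped with control. White fat markers are lowest in p53_null, where Ucp1 is above both groups with p53, and skeletal muscle markers are highest in pRb_null.

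Skeletal muscle, which lies under the skin and also expresses Ucp3, Cox7a1 and Cox8b, gave another order. Over 31 measured markers the mean score was −0.17 and −0.45 in double_null, 0.18 and 0.024 in p53_null, 0.52 and 0.58 in pRb_null, and −0.49 and −0.19 in control. At the looser bound 4 of the 31 markers were above control in double_null and 4 below it, against 8.13% and 9.56% of all genes, and the median was −0.15. These shares are near those of all genes. The slow troponin Tnnc1 fell in double_null by 0.65 ± 0.053 (adjusted p = 0.039), and for Myh3, an embryonic myosin, the difference was −1.31 ± 0.17 (adjusted p = 0.077). The 4 above control, named after their values were seen, were the skeletal actin Acta1 (2.55 ± 0.34, adjusted p = 0.078), the creatine kinase Ckm (1.37 ± 0.19, adjusted p = 0.082), the fast myosin light chain Myl1 (2.19 ± 0.35, adjusted p = 0.098) and the calcium store protein Casq1 (1.99 ± 0.35, adjusted p = 0.11). Markers of muscle thus lay on both sides of control in double_null. Those 4 were on the same side as Ucp3, Cox7a1 and Cox8b, and the 4 lower ones on the opposite side. Against pRb_null, 4 of the 31 were higher and 10 lower in double_null at the looser bound (8.1% and 10.4% of all genes), with a median of −1.39. Of the 4 above control, Ckm was lower there (−1.25 ± 0.19, adjusted p = 0.10), unlike Ucp3, Cox7a1 and Cox8b. Acta1 had a positive difference from pRb_null, as they did (1.19 ± 0.34, adjusted p = 0.21). Those of Casq1 (0.23 ± 0.35, adjusted p = 0.75) and Myl1 (0.14 ± 0.35, adjusted p = 0.85) were small. The part of muscle in the scores of Ucp3, Cox7a1 and Cox8b was not tested. In pRb_null, the group with the highest muscle scores, 12 markers were higher and 4 lower than in control at that bound, against 5.29% and 4.06% of all genes, and the median was 1.36.

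Other genes of the brown fat programme, from transcription factors to enzymes of fatty acid oxidation, had mean scores closer to 0 as a list. Of 35 genes, 30 were measured, and their mean score was 0.30 and 0.25 in double_null, −0.35 and −0.23 in p53_null, −0.060 and 0.20 in pRb_null, and −0.088 and −0.0053 in control. Against control, 6 were higher and 5 lower in double_null at the looser bound, where 8.13% and 9.56% of all genes were, and the median was 0.59, against −0.021 over all genes. In p53_null 2 were higher and 3 lower (6.38% and 7.26% of all genes), and in pRb_null 3 were higher and 1 lower (5.29% and 4.06%). Etfdh, which passes electrons from fatty acid oxidation to the respiratory chain, rose in double_null by 2.42 ± 0.21 (adjusted p = 0.040). Tbx15, a transcription factor of brown and white preadipocytes, differed by −2.44 ± 0.48 (adjusted p = 0.12). In p53_null, Pdk4, a kinase that turns glucose oxidation down, differed by −1.75 ± 0.21 (adjusted p = 0.10), and Etfdh by 1.25 ± 0.21 (adjusted p = 0.15). Etfdh scored 1.58 and 1.22 in double_null, 0.35 and 0.12 in p53_null, −0.41 and −0.81 in pRb_null, and −1.03 and −1.01 in control. Its 4 arrays without p53 were above the other 4, as for Ucp1 and for 5.89% of all probe sets. The mean of the list did not share this and was lowest in p53_null. Between double_null and p53_null, 9 of the 30 were higher and 2 lower at the looser bound (6.45% and 5.79% of all genes). The median there was 0.74, against 0.092 over all genes.

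Of the other mitochondrial carriers, the family to which UCP1 and UCP3 belong, 16 were measured. At the looser bound 2 of them were above control in double_null and 1 below it, near the 8.13% and 9.56% of all genes, and the median was 0.030. The aspartate and glutamate carrier Slc25a13 (1.09 ± 0.17, adjusted p = 0.093) and the oxoglutarate carrier Slc25a11 (2.19 ± 0.59, adjusted p = 0.19) had the smallest p. Macrophage markers had mean scores of 1.07 and 0.90 in double_null, −0.11 and 0.053 in p53_null, −0.46 and −0.51 in pRb_null, and −0.47 and −0.47 in control over 20 genes. In double_null 9 of them were higher and 0 lower than control at that bound (8.13% and 9.56% of all genes), with a median of 1.57, led by the scavenger receptor Cd163 (1.56 ± 0.20, adjusted p = 0.074) and the complement gene C1qb (2.05 ± 0.31, adjusted p = 0.092). Mean macrophage scores, like Ucp1, were highest in double_null, next in p53_null and lowest in the groups with p53. Single markers did not all share this: in p53_null 4 of the 20 were higher and 1 lower than control at that bound (6.38% and 7.26% of all genes). Csf1r (−2.14 ± 0.23, adjusted p = 0.091) and Cd163 (1.86 ± 0.20, adjusted p = 0.091) had the smallest p there, in opposite directions. The part of cell composition in the Ucp1 scores was not tested.

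As a description of likeness, the probe sets of other genes with the highest Pearson r over the 8 arrays were listed for each member. For Ucp1 they were the malic enzyme Me1 (r = 0.988), the Wnt signalling protein Dvl1 (r = 0.987) and the cytokine Il33 (r = 0.986). For Ucp3 by 1420657_at they were Esyt3 (r = 0.988), Kdm8 (r = 0.983) and Ranbp9 (r = 0.981). For Cox7a1 they were Plxdc2 (r = 0.983), Hspa1b (r = 0.978) and Pirb (r = 0.977), and for Cox8b the complex I subunit Ndufs3 (r = 0.964), Acadsb (r = 0.963) and Dkkl1 (r = 0.959). For Elovl3 they were Snrpg (r = 0.995), Cnot6 (r = 0.991) and Brd2 (r = 0.991), and for Cidea Wdr75 (r = 0.950), Ptger4 (r = 0.939) and Ogdh (r = 0.935). These are the highest values picked out of the 20393 probe sets with 1 symbol, over only 8 arrays, so they are high by selection. Among those of other genes, 206 had an r above 0.9 with Ucp1, 143 with that probe set of Ucp3, 323 with Elovl3 and 23 with Cidea.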

How the data were processed

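RNA of whole newborn skin was measured on 8 oligonucleotide arrays. Per the submitters' processing notes, RMA was used, in a version not stated. The values the authors deposited are scores that were standardized: in all 22690 probe sets the mean is 0 and the SD is 1 within 1e-06. No source used here states if the values were logarithms before that step. No filter on dim probe sets was possible.

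Of the probe sets, 20393 had 1 symbol in the platform annotation, 691 several and 1606 none; 20364 matched RefSeq (GRCm38.p6) by Entrez number. All probe sets of the members were used. The 8 comparison lists took 1 probe set per gene (_at before _a_at, _s_at and _x_at, then the lowest identifier; 12394 genes), and the text names the 2 genes with the smallest p in a comparison. Members, lists and tests were chosen with earlier results of these data known.

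Means per genotype were fitted to all 8 arrays with limma 3.58.1 in R 4.3.3 without moderation, since rows scaled to 1 SD tie the variances together (prior degrees of freedom 39.6 in the moderated test, which passed 0 probe sets). The 6 pairwise differences and the interaction were tested, and the fit was tested on simulated data. Same-numbered arrays were not taken as pairs. Alternatives were moderation, quantile normalization, centring of arrays, a replicate block, only the groups compared, 1 probe set per gene and leaving out each array. Added after seeing the data were a fit without the control arrays and the AGGTCA search. Plots used Python 3.11.15 and matplotlib 3.10.9.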

Additional observations from a re-analysis of the deposited data

How the results depend on the processing

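Of the member differences recomputed, 3 turned in direction with another normalization and 11 with 1 array left out, given here by value or range. The counts held in some fits and not in others. Probe sets passing between double_null and control numbered 192 in the fit reported, 0 with moderation, 1 with quantile normalization, 0 with a replicate block, 0 with only the groups compared, 125 with 1 probe set per gene and 205 with array medians set to 0. Against pRb_null, double_null had 92, then 0 with moderation, 1 with quantile normalization, 0 with the block, 0 with only the groups compared, 6 without the control arrays, 71 with medians set to 0 and 97 with 1 probe set per gene. Against p53_null it had 8, then 1 with quantile normalization, 0 with moderation, the block, only the groups compared or no control arrays, 4 with array medians set to 0 and 5 with 1 probe set per gene. p53_null against control had 27, then 0 with moderation, quantile normalization, the block or only the groups compared, 5 with medians set to 0 and 17 with 1 probe set per gene. p53_null against pRb_null had 13, then 0 with moderation, quantile normalization, the block, only the groups compared or no control arrays, 7 with medians set to 0 and 16 with 1 probe set per gene. pRb_null against control had 0, and 3 with 1 probe set per gene. Leaving out 1 array at a time gave 1 to 8 for double_null against control, 0 to 6 against pRb_null and 0 to 1 against p53_null, 0 to 5 for p53_null against control, 0 to 0 for p53_null against pRb_null, 0 to 1 for pRb_null against control and 0 to 1 for the interaction. The same fits gave 3 to 5 members higher between double_null and control at an unadjusted p under 0.05. With only the groups compared there were 3 higher, and with moderation 2 lower. Between double_null and p53_null there were 3 higher with moderation, quantile normalization or only the groups compared, and 0 lower with moderation or only the groups compared. Same-numbered arrays deviated with correlations of −0.16 to 0.20, and the replicate block, which leaves fewer degrees of freedom, gave an adjusted p of 0.094 for Ucp1 and 0.086 for Ucp3 (1420657_at) between double_null and control, and 0.12 for Ucp1 against pRb_null. That last call was also lost with medians set to 0 (0.051) and without the control arrays (0.10). With 1 probe set per gene, Ucp1 passed between p53_null and pRb_null (0.043) and Ucp3 between double_null and pRb_null (0.0497). Directions turned only for differences that had not passed. With medians set to 0, Ucp3 (1420658_at) in p53_null against control was 0.026 and Elovl3 in pRb_null against control was −0.0047, or −0.0079 with quantile normalization. With 1 array left out, Ucp3 (1420658_at) in p53_null spanned −0.28 to 0.12, Cox7a1 −1.05 to 0.085 and Cox8b −0.75 to 1.06 against control, and Cox8b −1.49 to 0.31 against pRb_null. Cidea spanned −0.071 to 1.03 in pRb_null and −1.53 to 0.035 in double_null against control. For Ppargc1a in double_null the spans were −1.09 to 0.42 (1434100_x_at), −0.26 to 2.57 (1437751_at) and −0.11 to 1.56 (1456395_at). The cause of these changes was not tested. With standardized scores, signal over background is unknown, so probe sets near background could not be set apart.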
